A study of Mus musculus with 21 samples.

Results

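Transcript levels of 10 immediate-early genes (Fos, Fosb, Fosl2, Jun, Junb, Jund, Egr1, Egr3, Atf3 and Ier2) were measured by bulk RNA-seq in mouse cranial neural crest cells (CNCCs) and pharyngeal arches. The genes were picked by symbol from the 24594 genes of each count table. Libraries fell into 7 groups of 3. In the stage series (9 libraries, single-end reads), red fluorescent (RFP+) CNCCs were sorted from Wnt1::Cre;ROSA-RFP embryos, wild type (WT) by label, at E10.5 out of PA2, the pharyngeal arch behind the jaw arch, and at E12.5 and E14.5 out of the pinna, the outer ear that PA2 builds. In this cross Cre is under the Wnt1 promoter, which is active in the early crest, and the label is inherited by melanocytes and glia of crest origin as well as by mesenchyme. In the genotype series (12 libraries, paired-end reads), PA2 and PA3 were taken at E10.5 from WT embryos and from HIRE1del/del embryos (HIRE1del below), which lack HIRE1, a long-range regulatory element of the Hoxa genes, on both chromosomes. No sorting is stated for the genotype series. All mice had a mixed C57Bl/6J;CD1 background. Embryos were pooled without regard to sex. E10.5 and E12.5 tissue was dissociated with trypsin for 10 min and E14.5 tissue with papain for 7 min, so the enzyme changed together with the step from E12.5 to E14.5.

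The members lie apart from each other in the genome (GENCODE M21, build GRCm38). Fos is at chr12:85473890-85477273, Fosb at chr7:19302696-19310051, Fosl2 at chr5:32135801-32157842 and Jun at chr4:95049034-95052222. Junb (chr8:84974484-84978718), Jund (chr8:70698949-70700616) and Ier2 (chr8:84661331-84662852) share a chromosome. Egr1 is at chr18:34859823-34864984, Egr3 at chr14:70077203-70082614 and Atf3 at chr1:191170296-191218039. Jun, Jund and Ier2 have 1 exon, and the others have 2 to 5 in their longest transcript by exon count. Antisense genes cover 7.28% of the exonic bases of Jun (Junos) and 52.6% of those of Jund (Gm11175), and Prdx2 on the other strand covers 7.52% of Junb. The kit did not mark strand, so reads from these overlaps cannot be assigned to either gene.

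Immediate-early genes are transcribed within minutes of a growth factor, calcium or stress signal, because the factors that switch them on are already present and only need phosphorylation. Fos and Jun family proteins pair through leucine zippers to form AP-1, Egr proteins are zinc finger factors that bind GC-rich sites, Atf3 is a stress-responsive partner of the Jun proteins, and Ier2 is a short nuclear protein. In connective tissue lineages these genes are known for their response to serum and to wounding. They are also known to respond to enzymatic dissociation of tissue, a step of the protocol given for all libraries.

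A library of the stage series held 25814151 to 49058941 counts, the E14.5 libraries being the deepest (from 47506139), and one of the genotype series 25804446 to 32210131. Levels are given as CPM, counts scaled to 1000000 per library on effective library sizes. The labels call all libraries CNCCs. Markers of crest mesenchyme summed to 1731 to 4153 CPM in the stage series and erythroid markers to 1.91 to 15.0 CPM. In the genotype series erythroid markers summed to 1583 CPM or more in every library, and epithelial and endothelial markers to 298 CPM or more, so these libraries held cells other than CNCCs. Hoxa2, one of the Hoxa genes, was at 73.4 to 84.2 CPM in WT PA2 and 4.75 to 7.09 CPM in HIRE1del PA2, and at 56.1 to 65.1 and 22.1 to 25.6 CPM in PA3, which matched the labels.

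**Figure D1:**
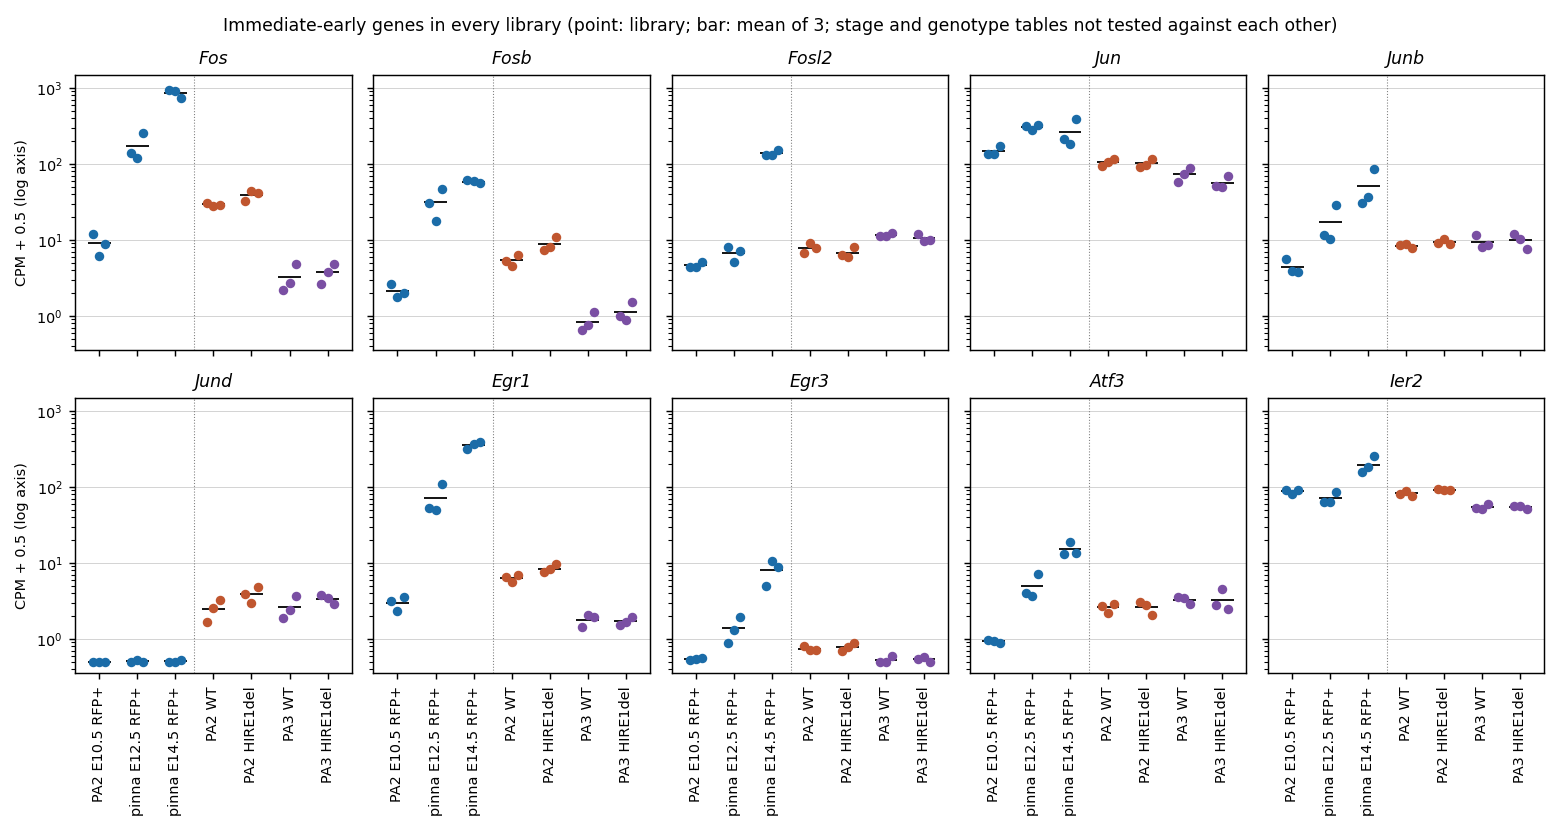
Level of each of the 10 genes in every library, as CPM plus 0.5 on a log axis. Points are libraries, bars are means of 3, blue is the stage series, orange PA2 and purple PA3 of the genotype series. Fos climbs from 5.63 to 11.6 CPM at E10.5 to 739 to 925 CPM at E14.5 and is lower in PA3 than in PA2.

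The bases just before the transcription start are shown for Fos, Fosb and Junb. These 3 members carry TGACG there, the core of the site bound by CREB and ATF proteins. Fos and Fosb differed between the arches while Junb did not. Atf3 carries TGACG as well, was not called between the arches either, and is not shown. The sequences are the 250 bases before the start in RefSeq (GRCm38.p6), written 5′ to 3′ along the gene. Capitals mark matches, on either strand, to TGACG, GCGNGGGCG (the Egr site) and TATAAA (the TATA box).
Fos, chr12:85473640-85473889, plus strand: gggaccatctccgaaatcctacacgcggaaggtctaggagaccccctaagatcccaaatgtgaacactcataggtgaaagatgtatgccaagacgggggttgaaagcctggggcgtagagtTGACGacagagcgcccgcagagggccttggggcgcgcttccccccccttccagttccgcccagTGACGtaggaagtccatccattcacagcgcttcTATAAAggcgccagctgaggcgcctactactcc
Fosb, chr7:19310046-19310295, minus strand: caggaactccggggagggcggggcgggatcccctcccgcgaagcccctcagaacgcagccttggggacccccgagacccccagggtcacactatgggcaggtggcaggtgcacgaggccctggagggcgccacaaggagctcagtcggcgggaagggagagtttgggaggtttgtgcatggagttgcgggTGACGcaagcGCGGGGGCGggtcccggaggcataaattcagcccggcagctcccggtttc
Junb, chr8:84978749-84978998, minus strand: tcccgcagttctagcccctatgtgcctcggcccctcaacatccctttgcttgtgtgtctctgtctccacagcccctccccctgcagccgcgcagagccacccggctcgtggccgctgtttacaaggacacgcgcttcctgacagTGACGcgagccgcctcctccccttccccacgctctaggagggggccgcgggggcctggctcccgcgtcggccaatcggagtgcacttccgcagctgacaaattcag
Fos had TGACG starting 129 and 66 bases before the start and TATAAA 33 bases before it. Fosb had TGACG 60 bases and GCGNGGGCG 50 bases before the start, and Junb had TGACG 106 bases before it. RefSeq start regions of 7 of the 10 members were searched. TGACG was found in 4 of them (Atf3 as well, on the reverse strand), against 17.8% of the 32851 start regions of the genome. GCGNGGGCG was found in Fosb and Fosl2 (4.7% of all regions) and TATAAA in Fos (12.4%). None of the 7 windows held TGACGTCA (1.55%), TGACTCA (4.46%) or a CArG box (1.47%), the site of serum response factor. Sites beyond these 250 bases, or near Egr1, Egr3 and Ier2, were not searched for, so the genes are not said to lack them. TGACG is contained in TGACGTCA, and all matches are of letters and not measured binding.

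The step from E10.5 PA2 to E12.5 pinna compares CNCCs before and during outgrowth of the ear, both dissociated with trypsin. Fos, the founding partner of Jun in AP-1, was at 11.6, 5.63 and 8.33 CPM in the 3 E10.5 libraries and at 140.3, 119 and 252 CPM in the 3 E12.5 libraries. Egr1 was at 2.61, 1.85 and 3.04 CPM and then at 52.1, 48.8 and 109 CPM. For both genes every E12.5 library stood far above every E10.5 library. By the edgeR quasi-likelihood test, Fos rose 20.0-fold (log2 fold change 4.32 ± 0.31 SE, adjusted p = 3.96e-07) and Egr1 27.9-fold (4.80 ± 0.34, adjusted p = 3.31e-07). In bulk RNA, a change in the number of cells of a type and a change in RNA per cell cannot be told apart.

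Fosb, a close relative of Fos, was at 2.14, 1.27 and 1.47 CPM at E10.5 and at 30.0, 17.3 and 46.4 CPM at E12.5. Junb, a Jun family member that is itself induced, was at 5.05, 3.397 and 3.27 CPM and then at 11.3, 9.86 and 28.3 CPM. The ranges did not touch for either gene. Fosb rose 19.1-fold (4.26 ± 0.35, adjusted p = 1.10e-06, edgeR) and Junb 4.22-fold (2.08 ± 0.51, adjusted p = 0.00379, edgeR). Without E12.5 replicate 3 the log2 fold change of Junb was 1.45.

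Jun, the main Jun family partner, was already at 134, 136 and 173 CPM at E10.5 and was at 313, 279.6 and 323 CPM at E12.5. It rose 2.07-fold (1.05 ± 0.23, adjusted p = 0.00197, edgeR) with no overlap of the ranges. Fosl2, which encodes Fra-2, was at 3.85, 3.88 and 4.61 CPM at E10.5 and at 7.50, 4.54 and 6.70 CPM at E12.5. The ranges overlapped, and the called rise was 1.51-fold (0.60 ± 0.17, adjusted p = 0.0096, edgeR), with an adjusted p of 0.0518 under limma-voom. Atf3 was at 0.468, 0.446 and 0.392 CPM and then at 3.56, 3.17 and 6.63 CPM, a 10.2-fold rise (3.35 ± 0.35, adjusted p = 7.61e-06, edgeR).

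Egr3 had 1, 1 and 2 counts in the E10.5 libraries and 10, 25 and 42 in the E12.5 libraries. The pooled ratio was 20.6, with an exact 95% interval of 7.73 to 77.6 that covers counting error only. Ier2 was the exception among the members tested, at 91.5, 80.8 and 90.6 CPM at E10.5 and at 63.4, 63.1 and 84.1 CPM at E12.5. Its log2 fold change of -0.32 ± 0.16 was not called (adjusted p = 0.105, edgeR), and without E12.5 replicate 3 it was -0.46 (adjusted p = 0.0384). Jund had 0 counts at E10.5 and at most 1 count in any other stage library, against a floor of 3 counts, so no fold is given. The genotype libraries, which were shallower than those of E14.5, held 30 to 115 Jund counts each. The unstranded reads were counted with an opposite-strand setting, and 52.6% of the exonic bases of Jund are shared with Gm11175. The near-zero counts are therefore not read as absence of the transcript, and the Jund counts of the genotype series are uncertain too.

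Of the 9 members that passed the filter (1 CPM in 2 libraries), 8 were called higher at E12.5 and 0 lower, where 35.0% of the 13438 genes tested were called higher and 33.7% lower. Egr3 and Atf3 passed only through the later stages. Of the other 7 members, 6 were called higher, and their median log2 fold change was 2.08 against 0.0097 over all genes tested. The third E12.5 library gave the highest value for 8 of the 9 members with enough counts to order the replicates, so the E12.5 means of Fos (170.3 ± 71.2 CPM, SD) and Egr1 (70.0 ± 33.9 CPM) carry a wide spread.

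From E12.5 to E14.5 pinna the enzyme changed from trypsin to papain, and stage and enzyme cannot be told apart in what follows. Fos reached 925, 905 and 739 CPM at E14.5 and Egr1 reached 312, 362 and 383 CPM. Both rose again by 5.03-fold (Fos 2.33 ± 0.27, adjusted p = 1.81e-05; Egr1 2.33 ± 0.26, adjusted p = 1.37e-05, edgeR). No E14.5 library of either gene overlapped an E12.5 library. Fosb gained least among the members that rose, at 60.0, 59.0 and 54.9 CPM (1.86-fold, 0.89 ± 0.26, adjusted p = 0.00995, edgeR).

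Fosl2 had the largest rise of this step among the members, at 129, 132 and 153 CPM. That was 22.1-fold above E12.5 (4.47 ± 0.15, adjusted p = 2.71e-09, edgeR), and the 3 libraries were close together. On the log2 scale Fos, Fosb and Egr1 had the larger of their gains before E12.5 and Fosl2 after it, a difference that was not itself tested. Egr3 had 201, 479 and 375 counts (4.43, 10.1 and 8.21 CPM), a log2 fold change of 3.10 ± 0.41 (adjusted p = 5.02e-05, edgeR). Atf3 was at 12.4, 18.4 and 12.9 CPM (3.27-fold, 1.71 ± 0.25, adjusted p = 0.000129, edgeR).

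Ier2 was at 156, 179.7 and 253 CPM at E14.5, above all E12.5 libraries (2.80-fold, 1.48 ± 0.17, adjusted p = 1.41e-05, edgeR). Junb was at 29.6, 36.3 and 86.3 CPM (3.08-fold, 1.62 ± 0.44, adjusted p = 0.00726, edgeR). The log2 fold change of Junb was 1.00 without E14.5 replicate 3 and 2.26 without E12.5 replicate 3. Jun was at 212, 182 and 393 CPM, which spanned the E12.5 values, and its change was not called (-0.22 ± 0.23, adjusted p = 0.428, edgeR). Without E14.5 replicate 3, the library that was highest for Jun, Junb and Ier2, Jun was called lower (-0.62, adjusted p = 0.00108). Of the 9 members tested 8 were called higher and 0 lower, beside 32.6% higher and 33.1% lower among all genes. Without Egr3, which passed only through E14.5, this was 7 of 8 with a median log2 fold change of 1.67.

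Between the ends of the series, all 9 members tested were called higher at E14.5 than at E10.5, beside 42.0% of all genes higher and 40.0% lower. This comparison shares its groups with the other stage comparisons and is no separate evidence. Fos was 100.3-fold higher (6.65 ± 0.34, adjusted p = 7.18e-09, edgeR) and Egr1 140.4-fold (7.13 ± 0.35, adjusted p = 5.61e-09, edgeR). Fosb was 35.5-fold higher (5.15 ± 0.35), Fosl2 33.4-fold (5.06 ± 0.16), Atf3 33.2-fold (5.06 ± 0.34) and Junb 13.0-fold (3.70 ± 0.51). Jun (1.78-fold, 0.83 ± 0.23) and Ier2 (2.24-fold, 1.16 ± 0.16) rose least. The highest adjusted p of the 9 was 0.00608 (Jun, edgeR). For Junb the log2 fold change was 3.08 without E14.5 replicate 3. The pooled Egr3 ratio was 163 (interval 63.4 to 598). Over the 7 members that passed in both groups the median log2 fold change was 5.06, against 0.024 over all genes.

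**Figure D2:**
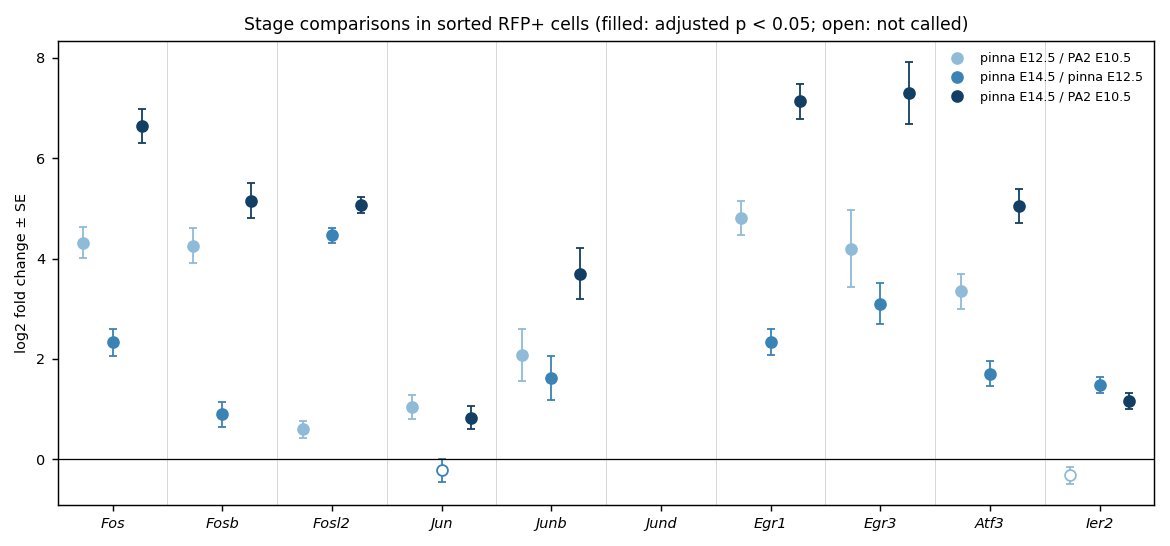
Log2 fold change with its standard error for each gene in the 3 stage comparisons; filled points have an adjusted p under 0.05 and open points do not. Jund is missing because it did not pass the filter, and Egr3 at E10.5 rests on 4 counts. Fosl2 gains mostly after E12.5 (4.47), and Jun (-0.22, E12.5 to E14.5) and Ier2 (-0.32, E10.5 to E12.5) are the open points.

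The makeup of the summed signal changed as well. The 10 genes together took 233 to 285 CPM at E10.5, 546 to 857 CPM at E12.5 and 1842 to 2084 CPM at E14.5. The share of Jun in that sum was 53.3 to 60.8% at E10.5 and 9.68 to 18.9% at E14.5, and the share of Fos went from 2.41 to 4.63% to 35.5 to 50.2%. Compared per length, as RPKM (CPM divided by the exonic length in kilobases), Ier2 (57.5 ± 3.90, SD, n = 3) and Jun (46.3 ± 6.98) led at E10.5 with overlapping ranges, and Fos was next at 3.62 ± 1.27. At E12.5 Jun (95.7 ± 7.07), Fos (72.4 ± 30.3) and Ier2 (46.0 ± 7.89) led, and neighbours in this order overlapped. At E14.5 Fos stood alone at 364 ± 43.4 RPKM, above Ier2 (129 ± 33.0), Jun (82.4 ± 35.8) and Egr1 (78.6 ± 8.11), which overlapped each in turn.

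Markers of other crest derivatives and of other cells moved over the same stages. Melanoblast markers summed to 60.5 to 80.3 CPM at E10.5, 52.8 to 74.1 at E12.5 and 392 to 448 at E14.5, and Schwann cell markers to 24.1 to 29.0, 38.1 to 42.7 and 132 to 142 CPM. Both cell types descend from the crest and carry RFP. The melanoblast sum did not rise from E10.5 to E12.5, but 8 of 9 melanoblast markers tested were called higher and 1 lower. Their median log2 fold change was 3.17, and in that step 35.0% of all genes were called higher and 33.7% lower. Of the 10 melanoblast markers, 3 reached 1 CPM in every library at E10.5, 5 at E12.5 and 9 at E14.5. Markers could thus pass the filter through later stages alone, which favours a rise in this count. Endothelial markers summed to 7.69 to 10.9 CPM, then 20.9 to 30.6, then 114 to 176 CPM. Kdr made up most of that sum at E14.5 (101 to 167 CPM), where Cdh5 was at 1.89 to 2.72 CPM and Pecam1 at 2.23 to 2.67 CPM. Cldn5 was at 0 in the WT PA2 libraries too, which hold other endothelial markers, so its 0 says nothing here. Epithelial markers summed to between 11.9 and 15.3 CPM in the first 2 stages and reached 30.0 to 49.8 CPM at E14.5. From E10.5 to E12.5, 4 of 7 epithelial markers tested were called higher and 1 lower (median log2 fold change 1.65), beside the same 35.0% and 33.7% of all genes. Of the 10 epithelial markers, 3 reached 1 CPM in every library at E10.5, 4 at E12.5 and 6 at E14.5. The limit given for the melanoblast count holds here too. Myeloid markers summed to 13.0 CPM or less. Their part in the levels of the immediate-early genes was not tested.

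The other genes of the pathway were described by 7 lists, in which Fosl1 and Maff stand in both the primary-response and the dimer partner lists. Their counts stand beside the shares of all genes called, which were 35.0% higher and 33.7% lower in the first step, 32.6% and 33.1% in the second, and 42.0% and 40.0% over the whole span. Of 31 further primary-response genes tested, 15 were called higher and 6 lower at E12.5 against E10.5, 20 higher and 4 lower at E14.5 against E12.5, and 23 higher and 4 lower over the whole span. The list medians were 0.48, 0.84 and 1.48 on the log2 scale. At E12.5 Klf4, a zinc finger factor (log2 fold change 3.60), and Nr4a1, an orphan nuclear receptor (3.43), rose most, and Ccn2, a matricellular protein (-3.36), and Trib1 (-1.44) fell most. At E14.5 against E12.5 Maff (3.73) and Nr4a2 (3.53) rose most and Ier5l (-1.97) and Sgk1 (-1.37) fell most. Over the whole span Nr4a1 (6.92, from a mean of 5.68 to 690.0 CPM) and the antiproliferative gene Btg2 (5.20) rose most, and Ier5l (-3.16) and Trib1 (-1.32) fell most. Egr2 was listed at 0 in all 21 libraries, which, as for Jund, is not read as absence of the transcript. Fosl1 had at most 5 counts in a stage library, beside 53 to 95 in a WT PA2 library of the genotype series.

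Of 18 feedback genes tested, 13 were called higher and 3 lower at E12.5 against E10.5, 11 and 2 at E14.5 against E12.5, and 14 and 3 over the whole span, with median log2 fold changes of 0.58, 0.54 and 0.96. These genes act to end the response. Dusp8, a MAP kinase phosphatase (2.69), and Zfp36, which speeds the decay of AU-rich mRNAs (1.30), rose most at E12.5, and the ERK phosphatases Dusp6 (-1.19) and Dusp4 (-1.18) fell. Dusp8 was low, at a mean of 0.222 CPM at E10.5 and 1.46 CPM at E12.5. Spry1 (2.02) and Nab1, a corepressor of Egr proteins (1.89), rose most from E12.5 to E14.5, and Dusp5 (-1.29) and Dusp10 (-0.76) fell. Over the whole span Nab1 (3.16) and Spry4 (2.93) led the rises, and Dusp5 (-1.60) and Dusp6 (-0.68) the falls.

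Of 10 other dimer partners tested, 2 were called higher and 5 lower at E12.5, 7 higher and 0 lower from E12.5 to E14.5, and 6 higher and 3 lower over the whole span. Batf (1.92, at a mean of 0.942 CPM) and Atf7 (0.66) rose at E12.5, and Maf (-1.35) fell. Maff (3.73) and Jdp2, a repressor of AP-1 (2.03), rose most in the second step, and over the whole span Maff (4.12) and Batf (2.98) rose and Batf3 (-1.47) fell. The 0 genes called lower in the second step became 1 with the replicate block and under 4 of the other settings. Of 20 upstream genes (serum response factor and its partners, CREB and MAP kinases) 7 were called higher and 8 lower, then 8 and 5, then 6 and 8, which is near the shares of all genes in most of these, and the medians were -0.037, 0.046 and 0.035. Rps6ka5 (0.82) and Elk4 (0.71) rose and Rps6ka3 (-1.02) fell at E12.5. Mapk3, which encodes ERK1 (1.28), rose and Rps6ka2 (-0.82) and Map2k2 (-0.64) fell in the second step. Over the whole span Mapk3 (1.65), Elk4 (1.26), Map2k2 (-1.23) and Rps6ka2 (-1.21) were the extremes. Mapk14 was called in both single steps but had at most 27 counts at E10.5, 5 at E12.5 and 96 at E14.5. The E10.5 WT PA2 libraries of the genotype series held 173 to 205 Mapk14 counts each. Its low stage counts are therefore not read as absence of the transcript, and its calls are uncertain.

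Of 16 textbook AP-1 and Egr targets tested, 6 were called higher and 4 lower at E12.5, 9 and 4 at E14.5 against E12.5, and 11 and 4 over the whole span. With a filter of 1 CPM in every library, which tests fewer genes, 2 were called lower at E12.5, 4 higher in the second step, and 6 higher and 2 lower over the span. The hyaluronan receptor Cd44 (4.44) and Vegfa (0.95) rose most at E12.5, and Mmp9 (-2.33) and Plaur (-2.09) fell most. Both falls were at low levels, from means of 2.65 to 0.521 CPM (Mmp9) and 1.39 to 0.323 CPM (Plaur). The matrix protease gene Mmp3 was at 0 counts at E10.5 and E12.5 and at 128 to 166 counts at E14.5. Fgf2 had 0 counts at E10.5, at most 4 at E12.5 and 452 to 1320 at E14.5. The E10.5 WT PA2 libraries of the genotype series held 16 to 47 Fgf2 counts each. Hmox1 (-1.24) fell most in the second step, and Hmox1 (-1.95) and Plau (-1.74) over the whole span.

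Of 11 heat shock and chaperone genes tested, 1 was called higher and 9 lower at E12.5 against E10.5, 3 higher and 7 lower at E14.5 against E12.5, and 2 and 8 over the whole span, with median log2 fold changes of -0.93, -0.20 and -1.10. Hspd1 (-1.48) and Hsp90aa1 (-1.45) fell most at E12.5 and Hsph1 (-1.20) and Hspe1 (-0.76) in the second step, while Dnajb4 rose in both (0.36 and 0.56) and Bag3 in the second (0.52). Over the span Hsph1 (-2.37) and Hsp90aa1 (-2.06) fell most, and Dnajb4 (0.92) and Bag3 (0.67) rose. Hspa1a and Hspa1b, the inducible genes of the family, were listed at 0 in all stage libraries, and as near-identical copies they are uncertain. Without E14.5 replicate 3, 4 chaperone genes were called lower in the second step.

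Of 12 genes of the integrated stress and unfolded protein responses, 4 were called higher and 4 lower at E12.5, 7 and 1 from E12.5 to E14.5, and 7 and 3 over the span. Vldlr (1.23) and Ppp1r15a, which encodes the phosphatase subunit GADD34 (0.59), rose and Asns (-0.41) and Hspa5 (-0.36) fell most at E12.5. Ppp1r15a (1.84) and Xbp1 (1.20) rose most in the second step, where Asns fell (-0.44). Over the span Ppp1r15a (2.43), Vldlr (1.82), Asns (-0.85) and Sesn2 (-0.49) were the extremes. Without E12.5 replicate 3, 2 genes of this list were called lower at E12.5, and without E14.5 replicate 3, 2 were called lower in the second step.

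**Figure D3:**
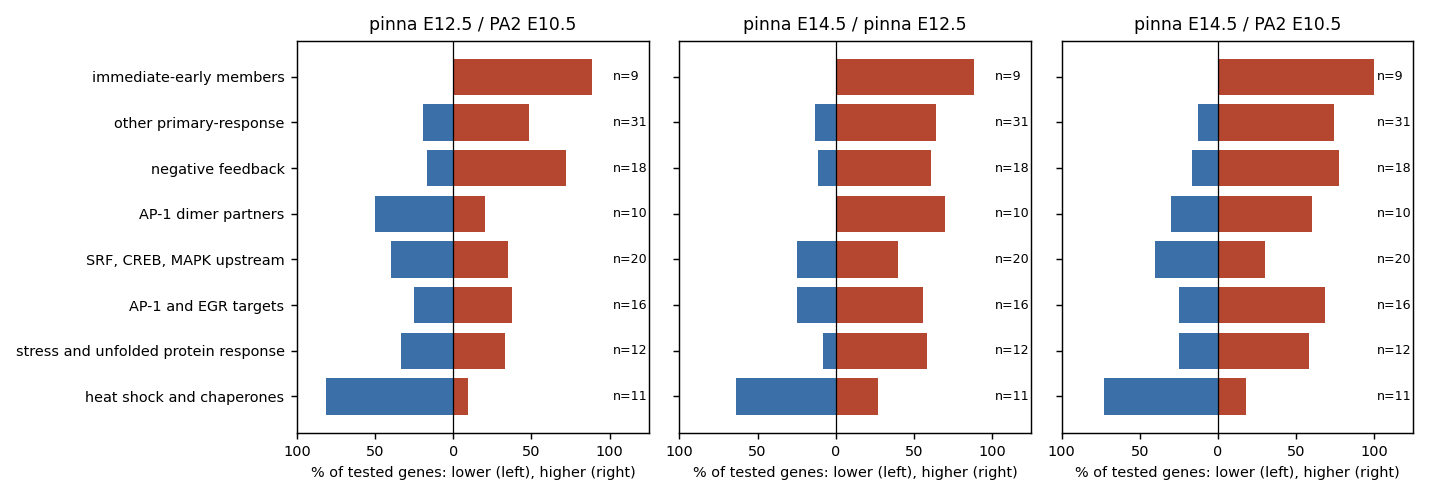
Percent of the tested genes of each list that were called higher (right, red) or lower (left, blue) in each stage comparison, with the number tested. The immediate-early genes lean to the right in every panel (8 of 9, 8 of 9 and 9 of 9). Members that passed the filter in both groups compared gave 6 of 7, 7 of 8 and 7 of 7. The chaperone genes lean to the left (9, 7 and 8 of 11 lower). Among all genes tested, 35.0%, 32.6% and 42.0% were called higher and 33.7%, 33.1% and 40.0% lower.

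The genotype series gives the same genes in PA2 and PA3 at 1 age. PA3, the next arch towards the tail, held less of the Fos and Egr transcripts in both genotypes. In WT, Fos was at 30.1, 27.5 and 28.6 CPM in PA2 and at 1.68, 2.22 and 4.38 CPM in PA3. In HIRE1del it was at 32.1, 43.0 and 41.2 CPM in PA2 and at 2.13, 3.29 and 4.35 CPM in PA3. Every PA3 library lay far below every PA2 library. Fos was 10.2-fold lower in PA3 in WT (log2 fold change -3.36 ± 0.27, adjusted p = 1.72e-06, edgeR) and 11.9-fold lower in HIRE1del (-3.57 ± 0.27, adjusted p = 1.00e-06, edgeR).

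Fosb followed Fos, at 4.80, 4.03 and 5.85 CPM in WT PA2 and at 0.153, 0.25 and 0.611 CPM in WT PA3. In HIRE1del it was at 6.76, 7.52 and 10.53 CPM in PA2 and at 0.486, 0.385 and 1.01 CPM in PA3. It was 13.9-fold lower in WT (-3.80 ± 0.40, adjusted p = 1.34e-05, edgeR) and 13.1-fold lower in HIRE1del (-3.71 ± 0.36, adjusted p = 7.43e-06, edgeR), and passed the filter only through PA2. Without WT PA3 replicate 3 the WT log2 fold change was -4.56.

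Egr1 was at 5.92, 5.05 and 6.37 CPM in WT PA2 and at 0.918, 1.54 and 1.42 CPM in WT PA3, 4.45-fold lower (-2.15 ± 0.20, adjusted p = 5.51e-06, edgeR). In HIRE1del it was at 7.03, 7.68 and 9.02 CPM in PA2 and 1.01, 1.15 and 1.43 CPM in PA3, 6.58-fold lower (-2.72 ± 0.21, adjusted p = 1.07e-06, edgeR). Egr3 did not pass the filter. It had 8, 6 and 7 counts in WT PA2 and 0, 0 and 3 in WT PA3, a pooled ratio of PA2 to PA3 of 6.84 (exact 95% interval 2.04 to 35.8). In HIRE1del the counts were 5, 7 and 10 in PA2 and 1, 2 and 0 in PA3 (ratio 7.78, interval 2.34 to 40.6).

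Ier2 and Jun differed less between the arches. Ier2 was at 81.2, 88.6 and 76.1 CPM in WT PA2 and at 52.0, 50.5 and 58.5 CPM in WT PA3, 1.53-fold lower (-0.61 ± 0.07, adjusted p = 2.86e-05, edgeR). In HIRE1del it was at 94.2, 90.1 and 90.5 CPM in PA2 and 55.6, 55.0 and 50.0 CPM in PA3 (-0.78 ± 0.07, adjusted p = 4.25e-06, edgeR). Jun was at 94.1, 106 and 116 CPM in WT PA2 and 57.5, 72.1 and 86.9 CPM in WT PA3 (-0.54 ± 0.15, adjusted p = 0.0119, edgeR). The adjusted p for Jun was 0.0516 without WT PA2 replicate 3 and 0.0505 without WT PA3 replicate 1. In HIRE1del Jun was at 91.4, 96.8 and 115 CPM in PA2 and 50.5, 49.9 and 68.3 CPM in PA3 (-0.84 ± 0.15, adjusted p = 0.00091, edgeR).

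Fosl2 ran opposite to its relatives. It was at 6.12, 8.56 and 7.33 CPM in WT PA2 and at 10.8, 10.8 and 11.8 CPM in WT PA3, 1.52-fold higher (0.60 ± 0.15, adjusted p = 0.00695, edgeR). In HIRE1del it was at 5.79, 5.53 and 7.58 CPM in PA2 and 11.4, 9.13 and 9.49 CPM in PA3 (0.67 ± 0.15, adjusted p = 0.00455, edgeR). Junb (7.13 to 11.5 CPM), Jund (1.16 to 4.25 CPM) and Atf3 (1.55 to 4.09 CPM) were not called between the arches in either genotype. Their adjusted p ran from 0.284 to 0.832 by edgeR. The Jund values carry the limits of strand setting and Gm11175 overlap given for the stage series.

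In WT, 5 of the 9 members tested were called lower and 1 higher in PA3, beside 17.4% lower and 19.1% higher among the 14383 genes tested. In HIRE1del Fos, Fosb, Egr1, Ier2 and Jun were again called lower and Fosl2 higher, beside 14.7% lower and 18.7% higher. Without Fosb, 4 of 8 were called lower in each genotype. The median log2 fold change of the 9 members was -0.54 in WT and -0.78 in HIRE1del, against -0.00065 and -0.00015 over all genes tested. Without Fosb it was -0.22 and -0.50. The replicate numbers were taken to pair PA2 and PA3 libraries of a genotype. A block for the pairs left these counts at 5 lower and 1 higher. Of 30 further primary-response genes, 6 were called higher and 7 lower in WT and 5 and 7 in HIRE1del. Of 19 feedback genes, 7 were called higher and 3 lower in WT and 6 and 3 in HIRE1del. With the block, 5 feedback genes were called lower in each genotype, and 8 primary-response genes higher in HIRE1del.

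The remaining lists are read against the same shares of all genes. In WT, 4 dimer partners were called higher and 1 lower of 12, 0 and 4 of 20 upstream genes, 5 and 2 of 15 targets, 2 and 3 of 13 chaperone genes and 2 and 1 of 13 stress response genes. In HIRE1del these were 3 and 2, 1 and 6, 6 and 2, 2 and 2, and 4 and 1, in the same order. Most of these small counts moved by over 1.5 times when 1 library was left out or the setting changed. In WT, partners called higher ranged from 2 to 4, targets called lower from 0 to 2 and upstream genes called higher from 0 to 2. In HIRE1del, upstream genes called lower ranged from 3 to 7 and stress response genes called higher from 2 to 5, and primary-response genes called higher from 2 to 8.

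The 2 arches differed in their cells. Erythroid markers summed to 1583 to 3422 CPM in PA2 and to 12851 to 25316 CPM in PA3, with all 8 markers called higher in PA3 in both genotypes. Epithelial markers summed to 298 to 364 CPM in PA2 and 535 to 843 CPM in PA3 (7 of 10 higher, 1 lower in each genotype), and neuronal markers to 57.4 to 79.5 and 153 to 257 CPM (9 of 9 tested higher). Endothelial markers summed to 301 to 319 CPM in PA2 and 359.6 to 397 CPM in PA3. Crest mesenchyme markers went down, from 1085 to 1239 CPM in PA2 to 715 to 940 CPM in PA3 (7 of 10 lower, 1 higher, median log2 fold change -0.59 in WT and -0.46 in HIRE1del). The part of these cells in the Fos, Fosb and Egr1 difference was not tested.

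**Figure D4:**
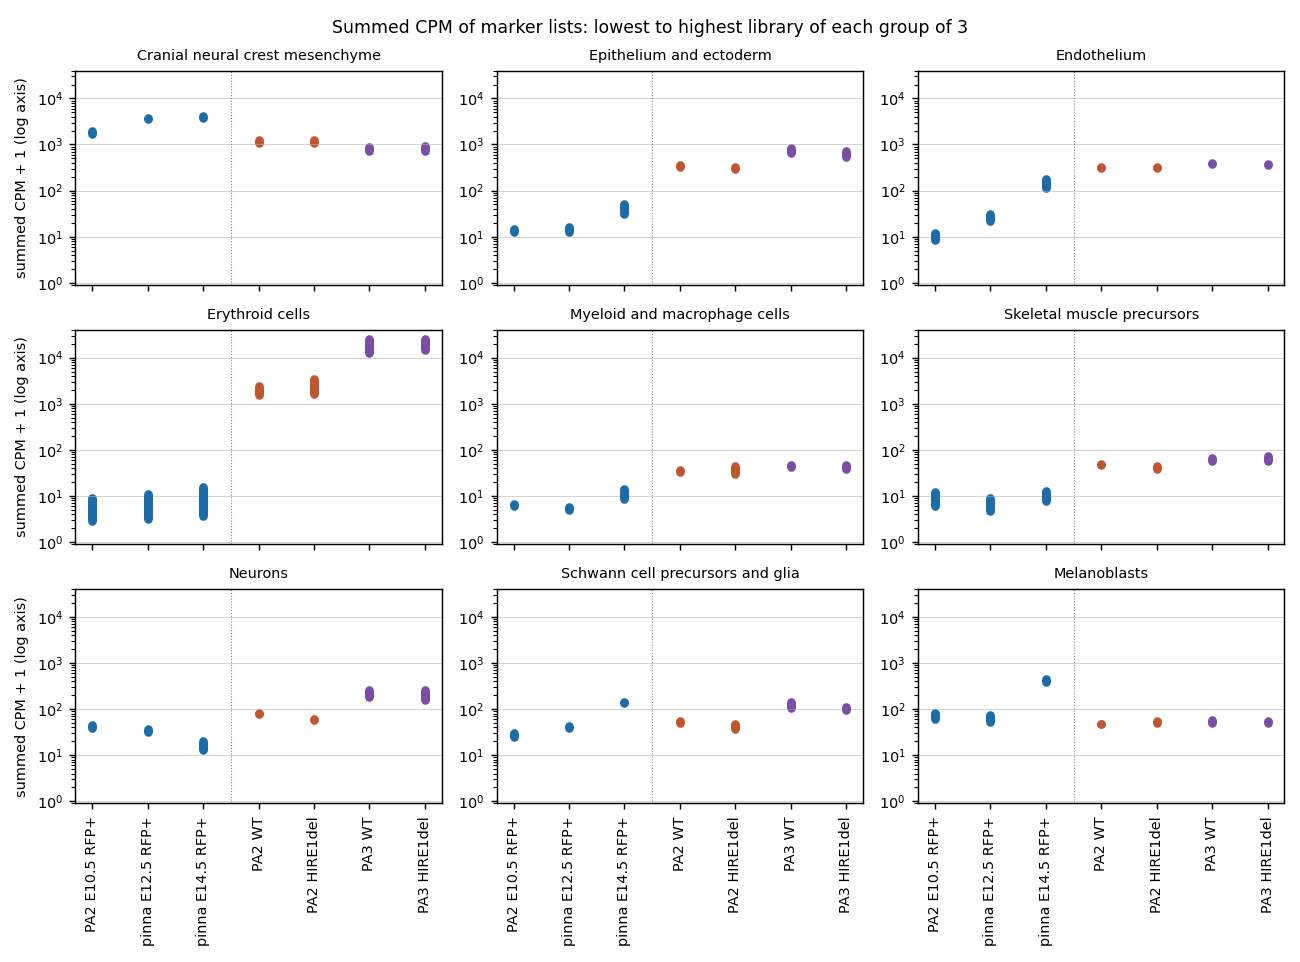
Summed CPM plus 1 of 9 marker lists on a log axis, as the span from the lowest to the highest library of each group of 3. Stage libraries (blue) are low in blood, epithelial and muscle markers. Both arches of the genotype series hold blood, epithelial and endothelial markers, and erythroid markers rise from 1583 to 3422 CPM in PA2 (orange) to 12851 to 25316 CPM in PA3 (purple).

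The deletion of HIRE1 itself moved none of the members past the threshold. In PA2, 0 of 9 members were called by edgeR, where 0.438% of all genes were called, and DESeq2 and limma-voom also called 0. At an unadjusted p under 0.05 there were 4 (Fosb, Egr1, Ier2 and Jund, the last with uncertain counts), beside 8.57% of all genes. Fosb was higher in HIRE1del by 0.75 ± 0.30 on the log2 scale (adjusted p = 0.491, edgeR), Egr1 by 0.45 ± 0.18 (adjusted p = 0.496, edgeR), Fos by 0.43 ± 0.23 (adjusted p = 0.647, edgeR) and Ier2 by 0.16 ± 0.07 (adjusted p = 0.539, edgeR). For these 4 genes (Fos, Fosb, Egr1 and Ier2) each HIRE1del library lay above each WT library, as did those of 5.73% of all genes tested. Neuronal markers summed to 77.4 to 79.5 CPM in WT PA2 and 57.4 to 59.7 CPM in HIRE1del PA2. Sums also lay apart for Schwann cell markers (48.1 to 54.6 and 36.2 to 45.5 CPM), muscle markers (46.1 to 48.9 and 37.7 to 44.6 CPM) and melanoblast markers (45.9 to 47.5 and 49.6 to 53.2 CPM). Single genes made up most of 3 of these sums. They were Isl1 for neurons (50.1 to 51.4 and 35.3 to 43.8 CPM) and Erbb3 for Schwann cells (36.3 to 40.4 and 26.4 to 34.7 CPM). Kit (41.8 to 43.0 and 45.1 to 49.3 CPM) did so for melanoblasts. The 4 melanoblast markers tested had a median log2 fold change of -0.23, and 0 were called. The part of these cell types was not tested.

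In PA3, 0 of 9 members were called by edgeR (0.216% of all genes), and 0 by DESeq2 and limma-voom. At an unadjusted p under 0.05 there was 1 (9.73% of all genes), Jun, with a log2 fold change of -0.36 ± 0.15 and overlapping ranges (adjusted p = 0.472, edgeR). Fosb had the largest difference, 0.84 ± 0.49 higher at 4 to 29 counts a library (adjusted p = 0.612, edgeR). It was 1.61 without WT PA3 replicate 3, 0.52 without WT PA3 replicate 1 and 0.31 without HIRE1del PA3 replicate 3. The difference of the HIRE1del effect between PA2 and PA3 was called for 0 of 9 members by edgeR (0.0487% of all genes), DESeq2 and limma-voom. At an unadjusted p under 0.05 there were 0, beside 5.52% of all genes. Its largest value was 0.56 ± 0.29 for Egr1 (adjusted p = 0.887, edgeR). These comparisons share libraries with those between the arches. Of 120 genes of the other lists, edgeR called 0 in PA2 and 0 in PA3. At an unadjusted p under 0.05 there were 11 and 14 of the 120, beside the 8.57% and 9.73% of all genes. DESeq2 called 4 in PA2 (Rps6ka3, Ccnd1, Klf4 and Timp1) and 1 in PA3 (Vldlr), and limma-voom 0 in both.

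**Figure D5:**
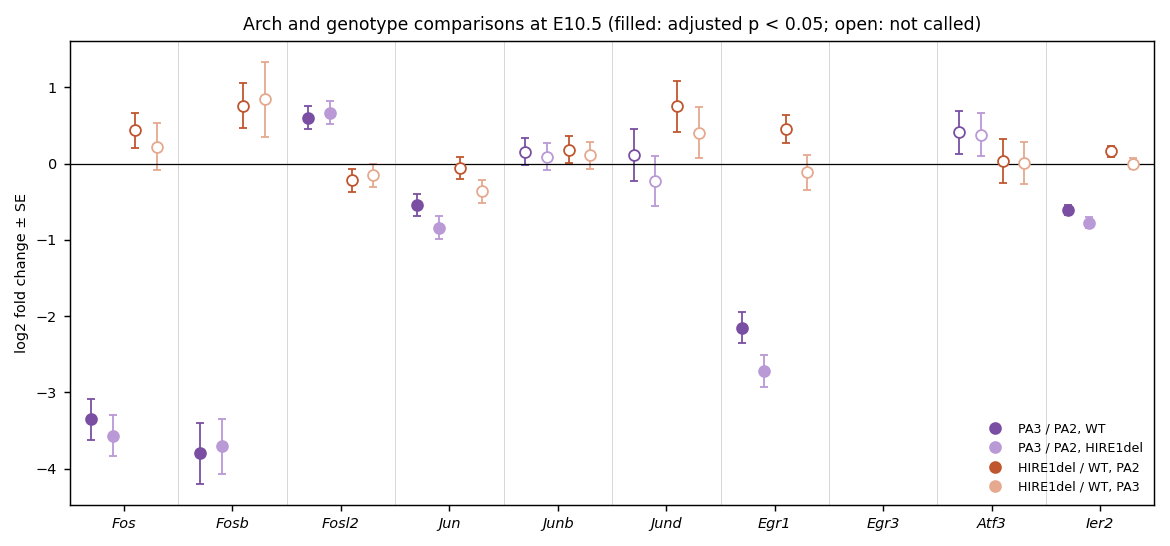
Log2 fold change with its standard error for PA3 against PA2 (purple) and for HIRE1del against WT (orange); filled points have an adjusted p under 0.05. Egr3 is missing because it did not pass the filter. Fos, Fosb and Egr1 lie between -2.15 and -3.80 in both genotypes for the arch comparison, and all HIRE1del points are open.

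Side by side across the tables, which were sequenced differently and were not tested against each other, Fos in PA2 at E10.5 was at 5.63 to 11.6 CPM in sorted cells and at 27.5 to 30.1 CPM in the WT arch. Jun was at 134 to 173 and 94.1 to 116 CPM, and Ier2 at 80.8 to 91.5 and 76.1 to 88.6 CPM. Per length, Ier2 led in both PA2 (53.8 ± 4.11 RPKM in WT) and PA3 (35.2 ± 2.81), Jun followed (33.0 ± 3.38 and 22.6 ± 4.61), and the third was Fos in PA2 (12.2 ± 0.569) and Junb in PA3 (4.87 ± 1.03). None of these neighbours overlapped. In WT PA3, Fosl2, Jund, Atf3 and Fos came next (1.17 to 1.63 RPKM) and each overlapped the next. The place of Jund is as uncertain as its counts.

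The genes most like the mean profile of the 10 members over the 21 libraries were Ramp3, Abca8b, Cyp27a1, Slitrk4 and Jade2. Likeness was the root mean square difference of log2(CPM + 0.5), centred within each table, over 12863 genes. It was 0.263 for Ramp3, 0.282 for Abca8b, 0.296 for Cyp27a1, 0.305 for Slitrk4 and 0.316 for Jade2, against a median of 1.08. Ramp3, which encodes a receptor activity modifying protein, had group means of 3.65, 9.79 and 51.0 CPM along the stages, 2.99 CPM in WT PA2 and 1.38 CPM in WT PA3. The members themselves lay at 0.349 (Egr3) to 1.27 (Fos).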

How the data were processed

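RNA-seq counts of 21 libraries were analysed. The authors aligned reads to mm10 (GRCm38) with QuasR, counted alignments over the exons of each UCSC known gene with QuasR set to the opposite strand, and deposited the raw counts, together with exonic bases per gene. The kit did not mark strand. A gene was tested if 2 or more libraries reached 1 CPM (13438 in the stage table, 14383 in the genotype table). Libraries were scaled by TMM and genes tested with the two-sided quasi-likelihood test of edgeR 4.0.16 in R 4.3.3, with all groups of a table in 1 model. Benjamini-Hochberg adjustment ran over every gene tested in a comparison, with 0.05 as the threshold for a call. The standard error was the log2 fold change divided by the root of F. RPKM used the deposited exonic bases. The code was tested on simulated data. DESeq2 1.42.0 and limma 3.58.1 served as alternatives.

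The members, lists and rules were chosen with earlier results of these data known. The rule named the members, the largest called changes of each list in the stage comparisons and the 5 genes nearest in profile; some genes it picked are not reported here. The labels state 3 independent biological replicates per sample, and replicates differed by more than counting noise (chi-square per degree of freedom 6.68 to 44.2). Deviations of PA2 and PA3 libraries with the same genotype and number correlated (r 0.230 to 0.382 in WT, 0.213 to 0.342 in HIRE1del). These numbers were taken as pairs, but the labels do not say what the pairs share. Some libraries of different genotypes correlated as much, such as WT PA2 replicate 1 and HIRE1del PA3 replicate 2 (r 0.293). A floor of 3 counts was used, which is 0.0612 to 0.116 CPM per library, and intervals cover counting error only. Positions came from GENCODE M21 and start regions from RefSeq. Reads were 50 bases long.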

Additional observations from a re-analysis of the deposited data

How the results depend on the processing

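Counts of called members were recomputed with other scalings (DESeq2 size factors, raw totals), other filters (none, filterByExpr, 1 CPM in each library), other tests (DESeq2, limma-voom), a replicate block, fits on the libraries compared alone, and each library left out. Of 788 single values under an alternative, 776 kept their direction and side of the threshold. The members called lower at E12.5 against E10.5 went from 0 to 1 (Ier2) with the replicate block, which pairs by number only, and with only the libraries compared, and ranged from 0 to 1 with a library left out. For E14.5 against E12.5 they also ranged from 0 to 1 (Jun). With 1 CPM in every library, which tests fewer genes, 3 members were called lower in PA3 in WT and 3 in HIRE1del. Values that were not called turned with a library left out, with ranges in PA3 against PA2 of -0.026 to 0.26 (Junb, WT), -0.27 to 0.42 (Jund, WT), -0.073 to 0.26 (Junb, HIRE1del) and -0.016 to 0.58 (Atf3, HIRE1del), on the log2 scale. The cause was not tested. Raw totals moved the median of all genes to -0.13 in E14.5 against E12.5. The block on paired PA2 and PA3 libraries changed no call of a member. Stage numbers did not pair (r -0.312 to 0.202). Depth limits Egr3, with 0 to 3 counts a library in E10.5 sorted cells and in PA3.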
